A study of Mus musculus with 2 samples.

Results

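The genes described here are 10 genes of bacterial sensing, antimicrobial defence and nuclear factor kappa B (NF-kB) signalling: Tlr2, Tlr4, Tlr5, Myd88, Lcn2, Camp, Nfkb1, Rela, Nfkbia and Tnfaip3. They were taken by name from the 21853 protein-coding genes of the GENCODE M21 annotation, and each was followed over a window of its gene body plus 10 kb on either side. Open chromatin was measured by DNase-seq, in which the enzyme DNase I cuts DNA that is not covered by nucleosomes. The tissue was whole urinary bladder from adult female B6CASTF1/J mice, the hybrid offspring of a C57BL/6J and a CAST parent, at 18 to 20 months of age. The study has 1 group of 2 libraries, labelled as biological replicates 1 and 2, with no treatment and no second genotype. Both libraries are listed under 1 donor record, and nothing in the labels says whether they came from separate animals, so the spread between them may be technical. Because the bladder wall mixes many cell types, fewer cells of a type and less open chromatin per cell cannot be told apart. With 1 group there was no comparison between conditions, and the values below are descriptions with the spread of 2 libraries.

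Toll-like receptors recognise molecules shared by many microbes, and most of them pass the signal to the adaptor encoded by Myd88, which leads through a chain of kinases to NF-kB. NF-kB is a family of paired transcription factors that inhibitor proteins hold in the cytoplasm until those inhibitors are degraded. Among the genes NF-kB activates are its own inhibitors Nfkbia and Tnfaip3, which end the response. In the bladder this pathway is known for its role in urinary tract infection, where the urothelium meets bacteria and secretes antimicrobial proteins.

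Across both libraries, 9 of the 10 genes had an accessible promoter and Lcn2 did not. A promoter peak was a deposited peak within 1 kb of any annotated start of a coding transcript, and 63% of all 21853 protein-coding genes had such a peak in both libraries (64.1% in replicate 1, 66.4% in replicate 2). The strongest promoter signals belonged to the adaptor Myd88 and the inhibitors Tnfaip3 and Nfkbia, and the weakest to Tlr5, Nfkb1 and Camp. The Myd88 peak also lies within 1 kb of starts of the neighbouring gene Acaa1a, so its signal cannot be assigned to either gene. Peak signal is the authors' value for each peak, always a whole multiple of 1 step per library, 0.00853 in replicate 1 and 0.00884 in replicate 2. Over the 13771 genes open in both libraries the median promoter signal was 3.51, and over the 9 open genes of the set it was 2.997. Of these 9, 4 lay above the median of all open genes: Myd88, Tnfaip3, Nfkbia and Rela. Grouped after the values were seen, the levels fell into tiers whose ranges over the 2 libraries did not overlap. How often other sets of genes divide this way was not counted. Myd88, Tnfaip3 and Nfkbia overlapped each other between 6.74 and 8.82, and Rela stood alone between 4.65 and 5.50. Tlr4 and Tlr2 overlapped between 2.21 and 3.38. Tlr5, Nfkb1 and Camp overlapped between 1.17 and 1.75.

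**Figure D1:**
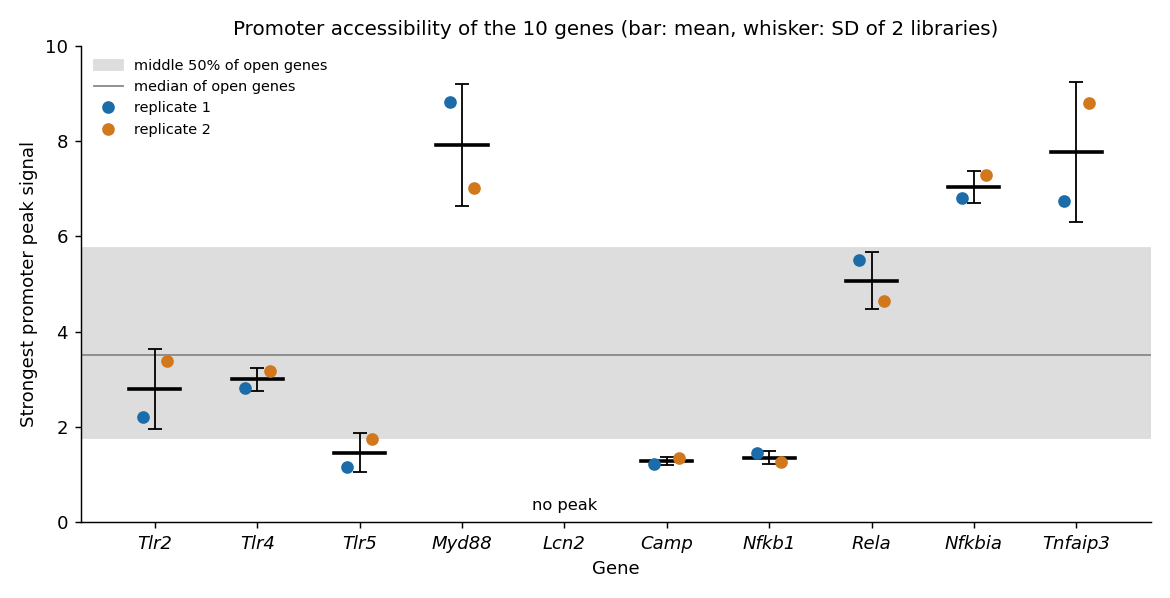
The vertical axis gives the signal of the strongest promoter peak of each gene on the horizontal axis, with points for the libraries, bars for the mean and whiskers for the SD; the grey band spans the middle 50% of the 13771 open genes (1.77 to 5.75) and the grey line their median of 3.51. Myd88, Nfkbia and Tnfaip3 lie above the band in both libraries, Tlr5, Camp and Nfkb1 lie below it in both, and Lcn2 has no peak. The Myd88 peak also lies near Acaa1a starts.

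The libraries held 84591 and 112174 peaks, with median signals of 0.819 and 0.760, equal to 96 and 86 steps, and the total depth is unknown. Of the marker genes of bladder cell types, 7 of 8 for urothelium had a promoter peak in both libraries. So did 5 of 7 for smooth muscle and 6 of 6 for fibroblasts, against 63% of all protein-coding genes. Median signals of those open were 2.10 for urothelium, 0.926 for smooth muscle and 2.12 for fibroblasts, against 3.51 for all open genes. The uroplakin gene Upk2 was the strongest of the urothelial markers, at 3.65. Among macrophage markers 1 of 7 (Irf8) had a promoter peak in both libraries, as did 1 of 8 neutrophil markers (Mpo). The counts were 1 of 7 for B and T cells (Pax5), 2 of 5 for endothelium and 1 of 5 for hepatocytes. Median summed window signal was 6.95 for macrophage, 1.92 for neutrophil, 4.61 for B and T cell, 3.78 for endothelial and 0.119 for hepatocyte markers. Over all genes it was 5.91, all as means of the 2 libraries. The part of each cell type in the values of the 10 genes was not tested.

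Among the receptors, Tlr4, which senses bacterial lipopolysaccharide, had promoter signals of 2.82 in replicate 1 and 3.17 in replicate 2. That is 2.997 ± 0.247 (SD, n = 2), or percentile 43.3 among open genes, and the libraries lay close together. Its gene spans chr4:66827584-66930284 on the plus strand, and its promoter peak covers the start with its middle at position -44, counted from the gene's 5′ end. The 143 bases of that peak upstream of the start (chr4:66827441-66827583, build GRCm38.p6, plus strand) are shown because they were footprinted in both libraries. A footprint is a short stretch inside accessible DNA where cuts are scarce, and capitals mark the 47 bases that fell in footprints of both libraries.
Tlr4 start: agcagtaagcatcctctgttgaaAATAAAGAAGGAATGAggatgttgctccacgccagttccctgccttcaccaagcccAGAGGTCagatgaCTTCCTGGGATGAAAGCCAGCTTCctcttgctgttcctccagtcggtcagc
Inside the Tlr4 body, an intronic peak at position 1286 had signals of 1.22 and 1.09, with the middle of another, weaker one at 24666 (0.452 and 0.919). The latter was 2.03 times as high in replicate 2, and the 95% exact binomial interval of 1.45 to 2.89, which takes a step as a count, covers counting error only. Only replicate 2 had peaks at 67282 (0.274) and 96226 (0.751).

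Tlr2, the receptor for bacterial lipopeptides (chr3:83836272-83841767, minus strand), had promoter signals of 2.21 and 3.38. The mean was 2.80 ± 0.832 (SD, n = 2), percentile 40.5, and replicate 2 was the higher by 1.53 times (counting interval 1.31 to 1.80). That peak lay in an intron with its middle at position 347, not over the outermost start. Tlr2 had 1 other peak in its window, in the pseudogene Gm7115 downstream of the gene at position 13387, with signals of 0.819 and 0.778, which were alike.

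Tlr5, the receptor for flagellin (chr1:182954788-182976044, plus strand), had the weakest promoter of the 3 receptors. Its promoter signals were 1.17 and 1.75, a mean of 1.46 ± 0.411 (SD, n = 2) at percentile 20.1. Each library had 3 stronger peaks away from the start. The strongest lay downstream of the gene at position 28382 (chr1:182983061-182983280), with signals of 4.22 and 4.48. An intronic peak at position 5502 had 2.18 and 2.77, and an upstream peak at position -3278 had 1.71 and 2.28. These peaks were above the promoter peak in both libraries. Summed over the window, Tlr5 signal was 11.2 in replicate 1 and 11.3 in replicate 2, against 5.26 and 6.88 for Tlr4 and 3.03 and 4.16 for Tlr2. The order of the window sums, which grow with window length, was therefore not that of the promoters. The upstream peak (chr1:182951401-182951620, plus strand) is shown because it holds a match to the consensus of AP-1, the Fos and Jun family of stress-activated factors, in a footprint of both libraries. Capitals mark the match.
Tlr5 upstream: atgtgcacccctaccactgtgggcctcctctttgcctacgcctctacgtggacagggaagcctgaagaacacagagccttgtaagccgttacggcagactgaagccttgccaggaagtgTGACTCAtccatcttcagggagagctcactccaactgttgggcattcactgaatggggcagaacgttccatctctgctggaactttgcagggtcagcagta
That match begins at position -3268, and the footprints overlapped it by 7 bp in replicate 1 and 3 bp in replicate 2.

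The adaptor gene Myd88 (chr9:119335934-119341411, minus strand) had the highest mean promoter signal of the set. Its signals were 8.82 and 7.01, a mean of 7.91 ± 1.28 (SD, n = 2) at percentile 90.1. Replicate 1 was the higher, and replicate 2 held 0.795 of its level (counting interval 0.724 to 0.873). This peak, at position 241, also lies within 1 kb of starts of Acaa1a, a peroxisomal thiolase gene on the opposite strand, so the accessibility cannot be assigned to either gene. A second promoter region at position 1521 had signals of 1.75 and 2.54, and it too lies near an Acaa1a start. It held the only match in the peaks of the 10 windows to the core recognised by interferon regulatory factors (IRFs), 2 GAAA repeats with any 2 bases between them. The match at position 1353 overlapped footprints by 7 bp and 10 bp in the 2 libraries. It is shown with 10 bases on either side (chr9:119340039-119340068, minus strand), with the match in capitals.
Myd88 IRF: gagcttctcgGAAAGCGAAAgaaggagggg
Of all peaks, 1.70% in replicate 1 and 2.02% in replicate 2 held this core. Farther peaks downstream of Myd88 reached 1.16 and 1.22 at position 10661. Like all peaks of this window they lie inside Slc22a14, whose annotated span covers the whole Myd88 window.

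Lcn2 encodes lipocalin 2, which withholds iron from bacteria by binding their siderophores (chr2:32384633-32388252, minus strand). It was the 1 gene of the set with no promoter peak in either library, as were 32.5% of all genes. Within 1 kb of its coding starts (2456 bp in all), 0 bp in either library had a cut-rate false discovery rate under 0.05. The other 9 genes had between 219 and 2082 such bases around their starts. The window was not closed as a whole. Its summed signal was 14.7 and 15.8 over 5 peaks in each library, which was higher than that of any other gene of the set except Nfkbia. Most of that came from the promoters of neighbours: 5.53 and 6.12 at the start of 1110008P14Rik, and 4.07 and 4.29 beside the start of Ptges2, a prostaglandin E synthase gene. Ciz1 also had a start in this window. The only peak away from any coding start lay upstream of Lcn2 at position -4019, with signals of 0.784 and 0.831, which barely differed. Its whole sequence (chr2:32392181-32392362, minus strand) follows, with capitals for the 18 bases in footprints of both libraries.
Lcn2 upstream: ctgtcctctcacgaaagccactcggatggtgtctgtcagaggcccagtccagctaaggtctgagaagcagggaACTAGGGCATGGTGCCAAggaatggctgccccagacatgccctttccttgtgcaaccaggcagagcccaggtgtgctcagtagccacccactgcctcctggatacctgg
It held no match to the NF-kB, AP-1, C/EBP or IRF consensus.

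Camp, which encodes the cathelicidin antimicrobial peptide (chr9:109847379-109849617, minus strand), had 1 peak in its window in each library. The signals were 1.22 and 1.34, a mean of 1.28 ± 0.0875 (SD, n = 2) at percentile 17.2, and they were nearly equal. The peak covers the start, and the 123 bases of it upstream of the start (chr9:109849618-109849740, minus strand) are shown because this was the only peak of the gene's window. Capitals mark the 8 bases in footprints of both libraries.
Camp start: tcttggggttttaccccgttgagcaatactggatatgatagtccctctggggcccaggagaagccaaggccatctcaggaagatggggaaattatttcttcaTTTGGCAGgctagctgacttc
Lcn2 and Camp also had the lowest ratios of observed to expected CpG in the 1000 bp around the 5′ end, 0.136 and 0.178, against a median of 0.553 for all genes. Neutrophils are known to make both proteins as well. Of 8 neutrophil markers, 1 (Mpo) had a promoter peak in both libraries and 6 had none in either. Their summed window signal ranged from 0, at S100a9 and Ly6g in both libraries, to 2.93 in replicate 1 (Csf3r) and 9.72 in replicate 2 (Elane). The part of neutrophils in the Lcn2 and Camp values was not tested.

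The NF-kB subunit genes differed in promoter signal. Rela, which encodes the p65 subunit (chr19:5637483-5648130, plus strand), had signals of 5.50 and 4.65. Its mean was 5.07 ± 0.602 (SD, n = 2) at percentile 68.1, and replicate 1 was the higher. Nfkb1, which encodes the p105 precursor of p50 (chr3:135584655-135691547, minus strand), had 1.45 and 1.26, a mean of 1.36 ± 0.131 (SD, n = 2) at percentile 18.3. Every library's Rela value lay above every Nfkb1 value. The low Nfkb1 signal came at a promoter dense in CpG, with an observed to expected ratio of 0.971, higher than in 96.9% of genes. Around its start, Nfkb1 had 3 peak regions in both libraries, the others at 0.682 and 0.725 (position 712) and at 0.665 and 0.866 (position -403). The gene body held 9 further regions, of which 4 were found in both libraries, and none exceeded 1.14. The strongest, at position 59496, had 0.810 and 1.14.

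Both subunit genes had NF-kB consensus matches in their peaks. At Nfkb1 the match at position 31, in the 5′ untranslated region, overlapped a footprint by 1 bp in each library. It is shown with 10 bases on either side (chr3:135691497-135691526, minus strand). At Rela the match lay downstream of the gene at position 11463, in a peak with signals of 2.37 and 2.57, and it overlapped no footprint in either library. The Rela peak is shown whole (chr19:5648801-5649000, plus strand). Capitals mark the match in each.
Nfkb1 start: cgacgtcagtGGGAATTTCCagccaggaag
Rela downstream: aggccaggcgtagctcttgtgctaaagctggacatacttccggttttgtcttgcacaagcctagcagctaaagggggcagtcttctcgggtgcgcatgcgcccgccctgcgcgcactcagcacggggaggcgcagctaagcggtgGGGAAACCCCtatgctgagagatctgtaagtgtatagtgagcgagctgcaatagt
Nfkb1 had a further match at position 528, also outside footprints.

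Nfkbia encodes the inhibitor IκBα, which retains NF-kB in the cytoplasm (chr12:55489410-55492647, minus strand). It had 2 strong peaks near its start in both libraries. The peak over the start had signals of 6.63 and 6.29, a mean of 6.46 ± 0.242 (SD, n = 2). The peak in the intron, at position 667, had 6.80 and 7.28, a mean of 7.04 ± 0.337 (SD, n = 2) at percentile 85.2 of strongest promoter peaks. The peaks differed little between libraries, and the ranges of the pair did not overlap. Nfkbia also had the highest summed signal of the 10 windows, 16.9 in replicate 1 and 20.2 in replicate 2. Of its peak regions, 3 held an NF-kB match, and their sequences are shown to compare them, with the match in capitals: the intron (chr12:55491861-55492100), the 113 bases upstream of the start (chr12:55492648-55492760) and the upstream peak (chr12:55495161-55495380), all on the minus strand.
Nfkbia intron: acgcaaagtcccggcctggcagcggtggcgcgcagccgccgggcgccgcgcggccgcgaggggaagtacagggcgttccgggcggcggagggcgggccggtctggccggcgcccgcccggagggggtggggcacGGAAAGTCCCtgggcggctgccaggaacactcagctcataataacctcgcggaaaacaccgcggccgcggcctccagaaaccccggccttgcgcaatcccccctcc
Nfkbia start: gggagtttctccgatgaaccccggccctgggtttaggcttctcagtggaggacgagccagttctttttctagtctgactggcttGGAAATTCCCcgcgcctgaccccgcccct
Nfkbia upstream: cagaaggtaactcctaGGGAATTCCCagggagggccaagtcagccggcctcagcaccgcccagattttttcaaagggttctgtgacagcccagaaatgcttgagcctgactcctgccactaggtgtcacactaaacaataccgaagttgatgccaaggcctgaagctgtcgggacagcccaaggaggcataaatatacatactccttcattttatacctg
The match in the intron, at position 681, overlapped footprints by 7 bp in replicate 1 and 10 bp in replicate 2. The match at the start, at position -29, lay in a peak of similar signal and overlapped no footprint in either library. The upstream match, at position -2717, overlapped none either, in a peak with signals of 1.63 and 2.39. The intron peak also held a C/EBP match, TTGCNNAAT, at position 769, in footprints of both libraries. It held a match to GGGNGGGG as well, the form searched for KLF and SP factors (KLF/SP), at position 670. Footprints covered that match by 8 bp in each library. A KLF/SP match at position -10 in the start peak overlapped footprints by 5 bp and 8 bp. Of all peaks, 20.4% in replicate 1 and 17.1% in replicate 2 held this form. Which factor left these footprints was not tested.

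Tnfaip3 encodes A20, an enzyme that edits ubiquitin chains and shuts down NF-kB activation (chr10:19000910-19015657, minus strand). Its promoter signals were 6.74 and 8.81, a mean of 7.77 ± 1.47 (SD, n = 2) at percentile 89.3. Replicate 2 was 1.31 times as high (counting interval 1.19 to 1.44). This peak, at position 197, held 2 NF-kB matches and an AP-1 match. The 137 bases of it shown here (chr10:19015411-19015547, minus strand) contain all of them, in capitals.
Tnfaip3 start: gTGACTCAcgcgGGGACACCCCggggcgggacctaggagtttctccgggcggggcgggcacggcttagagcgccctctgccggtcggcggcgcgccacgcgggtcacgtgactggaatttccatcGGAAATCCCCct
From the left, these are the AP-1 match at position 111, the NF-kB match at 122 and the NF-kB match at 235. Footprints overlapped the AP-1 match by 1 bp and 7 bp and the NF-kB match at 122 by 4 bp and 7 bp. The match at 235 overlapped none in either library. An intronic peak at position 6117 had signals of 1.23 and 2.09, a ratio of 1.71 (counting interval 1.38 to 2.11), with replicate 2 the higher.

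**Figure D2:**
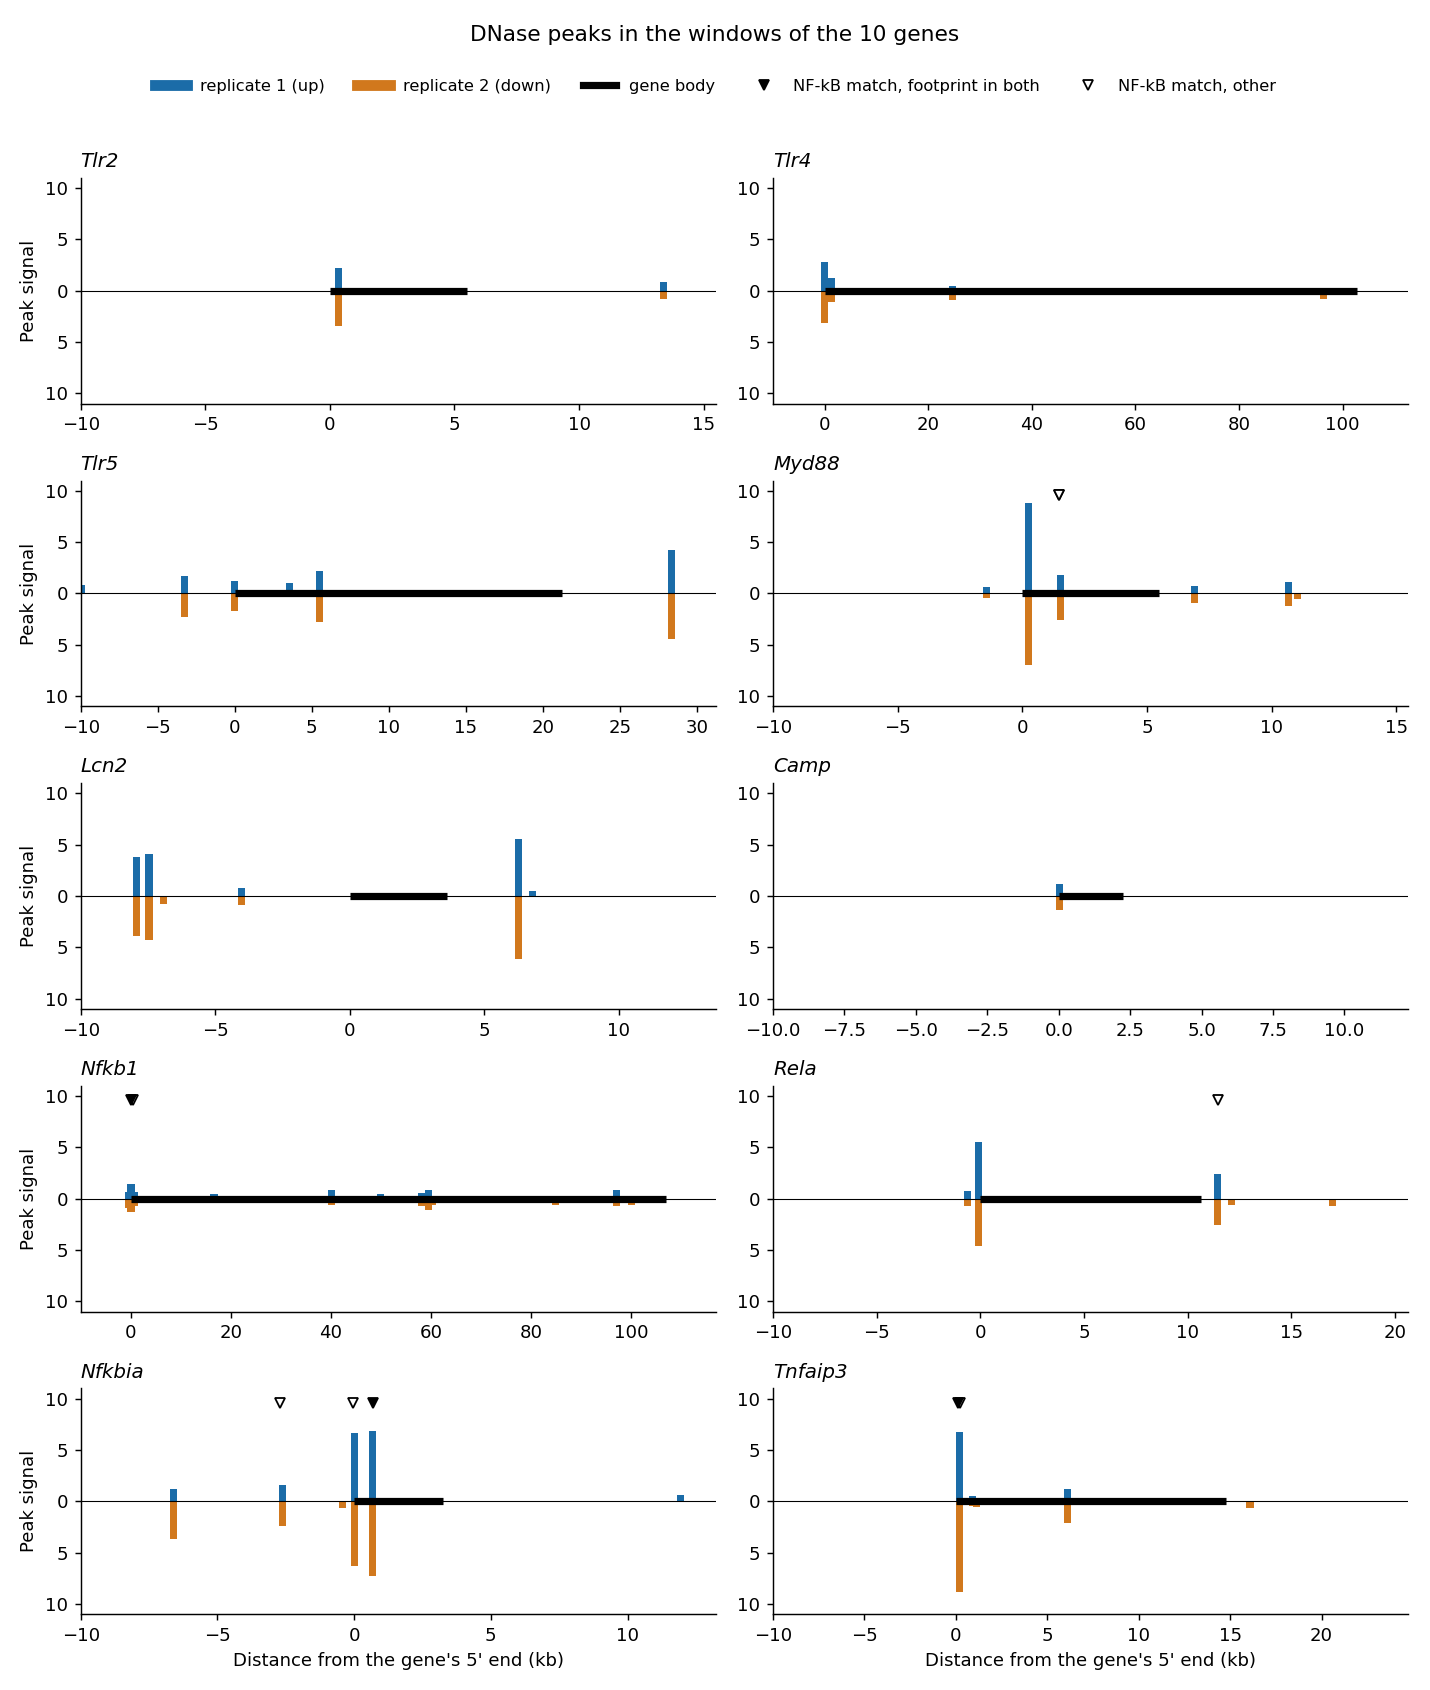
Each panel is the window of a gene, with distance from its 5′ end in kb on the horizontal axis and peak signal on the vertical axis; bars pointing up are peak regions of replicate 1, bars pointing down those of replicate 2, and triangles mark NF-kB matches inside peaks, filled where a footprint overlapped the match in both libraries (marks less than 1 kb apart overlap at Nfkb1 and Tnfaip3). Tlr5 has its strongest peak downstream at 4.22 and 4.48, Lcn2 has peaks only away from its own start, and Nfkbia has its pair of strong peaks at the start.

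In all, NF-kB consensus matches were found 10 times in the 10 windows' peaks, in 8 of 55 peak regions, at 5 genes: Myd88, Nfkb1, Rela, Nfkbia and Tnfaip3. The share of all genes with such a match in the peaks of their windows was not counted. Counted per library, 8 of 44 peaks (18.2%) in replicate 1 and 7 of 51 (13.7%) in replicate 2 held a match. Of all peaks, 3.08% in replicate 1 and 2.83% in replicate 2 did. Per kb of peak sequence this was 1.04 and 0.851 matches for the 10 genes, against 0.178 and 0.163 over all peaks. All peaks within 1 kb of a coding start held a match more often, 4.76% and 4.68%, than those away from starts, 2.38% and 2.19%. Of the 10 matches, 3 overlapped a footprint in both libraries, those at Nfkbia 681, Tnfaip3 122 and Nfkb1 31, the last by 1 bp in each. How often NF-kB matches in all peaks overlap footprints was not counted, so this number has no background beside it. The Myd88 matches, at positions 1460 and 1461, overlap each other in a coding exon and lay outside footprints.

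AP-1 matches (TGANTCA) were also found 10 times, in 8 regions at 5 genes: Tlr2, Tlr4, Tlr5, Nfkb1 and Tnfaip3. Of these matches, 2 overlapped a footprint in both libraries, at Tlr5 -3268 and Tnfaip3 111, also with no background counted. The 3 receptor genes each had an AP-1 match in a peak (at Tlr2 only downstream, position 13387) and no NF-kB consensus match in any. How many of all genes have an AP-1 match, or this pattern, in their windows was not counted. Of the 8 AP-1 regions, 6 lay away from coding starts, as did 32 of all 55 regions. Over all peaks, AP-1 matches were also more frequent away from coding starts, in 17.5% and 16.0% of peaks, than near them, in 5.13% and 5.29%. Peaks with an AP-1 match made up the same share of the 10 genes' peaks as NF-kB ones, 18.2% and 13.7%, but here the share of all peaks was 13.8% in replicate 1 and 13.2% in replicate 2. Those shares lie near the background.

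The peaks leave out some promoter matches. Among 32851 promoter windows from RefSeq, build GRCm38.p6, each 300 bases long around a start, 4.51% held the NF-kB consensus. Of the 8 genes of the set listed there, 3 had it: Tlr2, Nfkbia and Tnfaip3, the last in 1 of its 2 windows. Those at Nfkbia and Tnfaip3 are matches already described inside peaks of both libraries. The Tnfaip3 matches, at 122 and 235 from the gene's 5′ end, lie at -125 and -12 from the start of that RefSeq window. The 4.51% counts windows, while the 3 of 8 counts genes. At Tlr2 the 3 matches (an overlapping pair at chr3:83841771-83841781 and 1 at chr3:83841607-83841616) lay outside peaks and footprints in both libraries. They did lie in stretches with a cut-rate false discovery rate under 0.05 in both. A match is a run of letters and not a binding site.

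The windows held 44 peaks in replicate 1 and 51 in replicate 2, which merged into 55 regions. Of these, 37 were found in both libraries, 6 only in replicate 1 and 12 only in replicate 2. The unshared ones had signals of 0.478 to 1.06 in replicate 1, on either side of that library's median of 0.819, and of 0.274 to 0.751 in replicate 2, below its median of 0.760. Of the 37 shared regions, 16 lay at the gene's own starts, 3 at another gene's start only, and 18 away from coding starts, 8 of them in introns, 5 upstream and 5 downstream. Of the 10 genes' peaks, 86.4% in replicate 1 overlapped a peak of replicate 2, against 84.7% of all peaks, and 76.5% the other way, against 64.1%. The window edge fell near peaks at Tlr5 and Myd88. A Tlr5 peak of 0.827 in replicate 1 lay just inside its edge. Just outside were peaks of 0.574 and 0.636 in replicate 2 at Tlr5 and of 1.10 and 1.51 at Myd88.

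The shared regions had a median ratio between libraries close to that of all peaks, and single regions differed. After centring on the median ratio of all 70427 paired peaks, the log2 ratio of replicate 2 to replicate 1 had a median of -0.03 over the 37 pairs of the set, 17 being higher and 20 lower. The SD was 0.42 over these pairs and 0.50 over all pairs. Before centring, the counting intervals of several ratios left out 1, among them those of the Tlr2 promoter and of the Tlr4 and Tnfaip3 introns given above. After centring, ratios as far from 0 as at the Tlr2 promoter were found in 31.7% of all pairs. That share was 8.37% for the Tlr4 intron peak and 19.7% for the Tnfaip3 one. It was 59.6% for the Tnfaip3 promoter and 31.5% for the Myd88 promoter. Of the 37, 1 lay beyond 2-fold in either direction, against 5.29% of all pairs (4.62% higher in replicate 2 and 0.67% lower). That was a peak upstream of Nfkbia at position -6603 (chr12:55499141-55499360), inside the noncoding transcript Gm36634, with signals of 1.24 in replicate 1 and 3.65 in replicate 2. Replicate 2 was 2.93 times as high (counting interval 2.42 to 3.57), a centred log2 ratio of 1.41. A ratio as far from 0 was found in 0.865% of all pairs and in 0.522% of pairs of like signal. Of the other shared Nfkbia peaks, the one at -2623 was also higher in replicate 2, at 1.46 times (counting interval 1.21 to 1.77) and a centred log2 ratio of 0.41. The start and intron peaks had centred log2 ratios of -0.22 and -0.05.

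**Figure D3:**
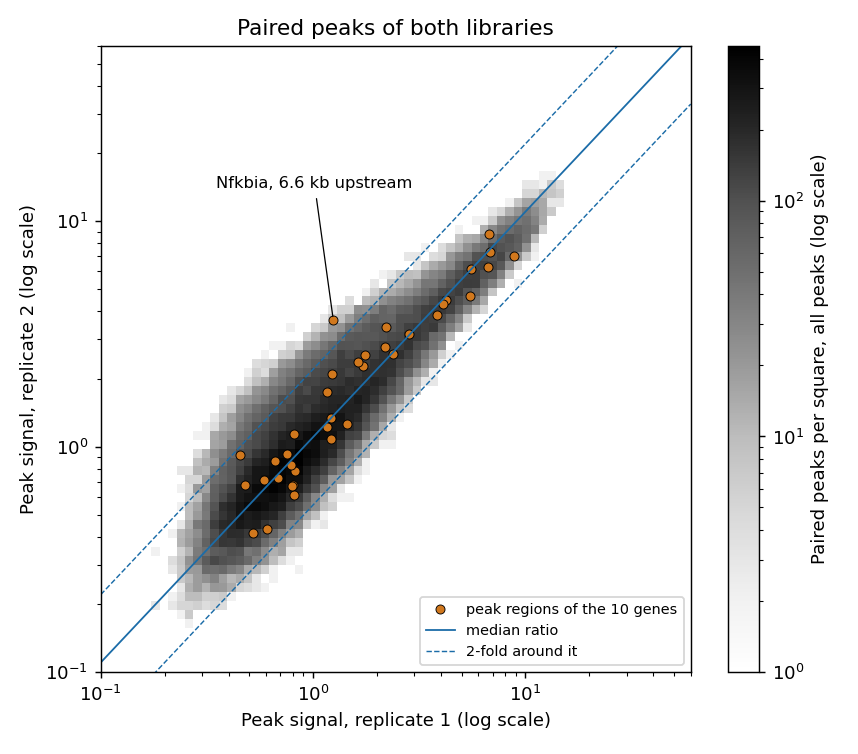
Peak signal in replicate 1 (horizontal) and replicate 2 (vertical), both on log axes, for all 70427 paired peaks (grey squares, darker for more peaks) and the 37 shared regions of the 10 genes (orange points); the solid line is the median ratio and the dashed lines lie 2-fold around it. The Nfkbia region at 1.24 and 3.65 is the only orange point outside the dashed lines.

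Peak counts and summed signal of the windows stood above the medians of all genes. The median of the 10 genes was 5 peaks in each library, against 3 and 4 over all genes, and the median summed signal was 8.57 and 10.5 against 5.12 and 6.58. Camp was the poorest with a sum of 1.22 and 1.34. Footprints numbered 104 and 107 in the peaks of the 10 genes, 10.8 and 10.1 per kb against 9.77 and 9.61 over all peaks. Of these footprints, 60.6% in replicate 1 and 57.0% in replicate 2 overlapped a footprint of the other library, against 55.1% and 40.7% of all footprints.

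The other genes of the pathway, in 7 lists of 83 genes, are given here by role, with 58 of 83 (69.9%) open in both libraries and 16 in neither. The share of all protein-coding genes open in both was 63%, so the lists together lay near that background. Of 9 other Toll-like receptor genes, 3 (33.3%) were open in both libraries. Their highest signals were 1.65 ± 0.0907 (SD, n = 2) for Tlr3, the receptor for double-stranded RNA, and 1.15 ± 0.459 (SD, n = 2) for Tlr6, the partner of Tlr2. The receptor genes without a promoter peak in either library were Tlr8, Tlr9, Tlr11 and Tlr13. Tlr2 and Tlr4 were thus above every other open Toll-like receptor promoter in both libraries, and Tlr5 was not.

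Of 14 receptor partners and adaptors, 13 were open in both, led by Tollip (10.8 ± 0.150, SD, n = 2), a regulator that binds Toll-like receptors, and Irak2 (5.76 ± 0.471), a kinase recruited by MyD88. All 13 kinases and signalling proteins upstream of NF-kB were open, led by Map3k14 (11.1 ± 0.729), the kinase of the noncanonical pathway, and Traf2 (8.96 ± 0.498). The 3 remaining subunit genes were open, with Relb at 7.23 ± 0.241, Nfkb2 at 5.55 ± 0.314 and Rel at 4.83 ± 0.210. Each was above Nfkb1 in both libraries. All 14 further inhibitor and feedback genes were open, with a median of 5.39, led by the deubiquitinase Otulin (8.62 ± 0.451) and by Tnip1 (8.40 ± 0.537), a partner of A20.

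Of 16 antimicrobial genes besides Lcn2 and Camp, 4 (25%) were open in both libraries and 8 in neither. Among the latter were the beta-defensin genes Defb1 and Defb3, S100a9, and Ltf, which encodes lactoferrin. The highest were Rnase4 and Ang, ribonuclease genes that share a peak of 2.68 ± 0.767 (SD, n = 2). A list of 14 genes that NF-kB is known to activate held mostly, but not only, cytokine, chemokine and adhesion genes. Of these 14, 8 (57.1%) were open in both and 4 in neither: Il1b, Ccl20, Csf2 and Csf3. The highest was Sod2, the mitochondrial superoxide dismutase, at 9.74 ± 0.0550 (SD, n = 2), with Il6 next at 3.33 ± 0.231.

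**Figure D4:**
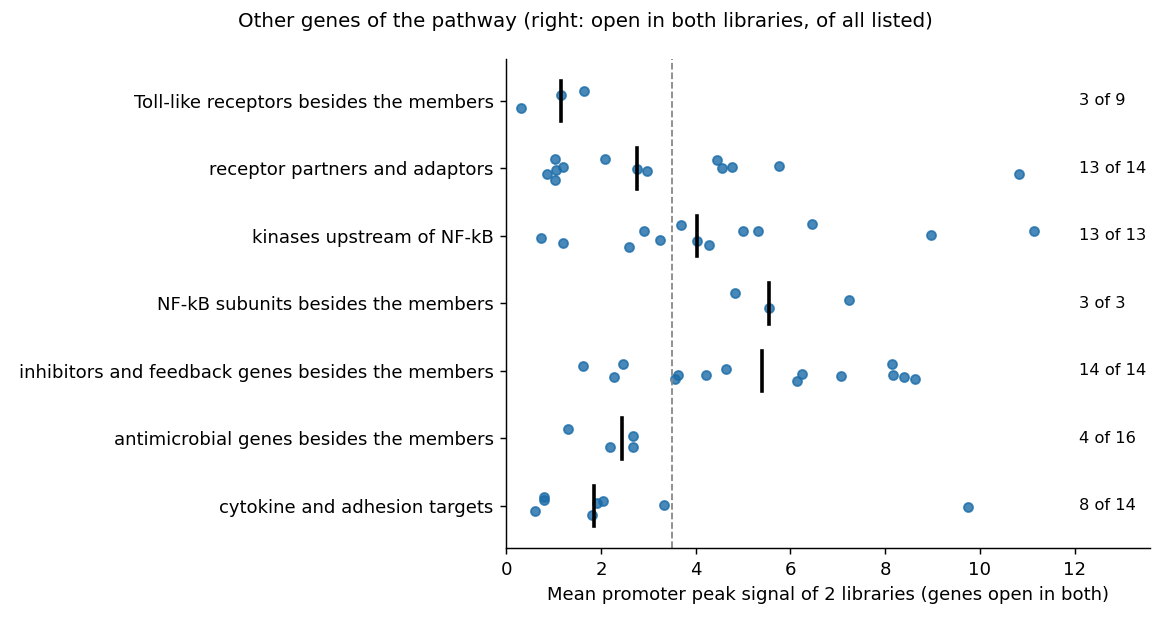
Points give the mean promoter peak signal of the 2 libraries (horizontal axis) for each gene open in both, by list (vertical axis); black bars are list medians, the dashed line is the median of all open genes, 3.51, and the counts at the right are genes open in both libraries of those listed. All 14 inhibitor and feedback genes are open with a median of 5.39, while 4 of 16 antimicrobial genes and 3 of 9 receptor genes are.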

How the data were processed

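DNase-seq of mouse urinary bladder was analysed in 2 libraries of 1 group. Per the file headers and deposited listings, the authors called peaks, footprints and cut-rate stretches per library on mm10, with none pooled. Not given in the sources used here are the aligner, the caller, tool versions and how the longer and shorter peak lists differ. The longer list was used. The deposited peak signal was a whole multiple of 1 step per library for 100% of peaks (tolerance 0.02 of a step), and what the scaling is relative to is not stated. The deposited cut-rate file gives false discovery rates on the p-value scale, listing only stretches under 0.05. The deposited footprints carry the same value, 0.01, in every row, taken here to be on the p-value scale, so they could not be ranked.

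Genes were placed, and bases read, on GRCm38.p6, the assembly of mm10, whose chromosome lengths were checked, and GENCODE M21. Per the labels the files are on this reference, while the mice carry CAST alleles, so the sequences shown are the reference's. Peaks were paired 1 to 1 by largest mutual overlap (at least 1 bp). A motif match in a footprint overlapped it by at least 1 bp. The NF-kB consensus was searched by its standard degenerate form. The other forms named here were TGANTCA for AP-1, TTGCNNAAT for C/EBP, GGGNGGGG for KLF/SP and GAAA repeats 2 bases apart for IRF. All were searched on both strands, each position once, and matches may overlap one another. The members and gene lists were chosen with earlier results of these data known. Named were all 10 genes, genes with a start in their windows, the 2 highest and up to 4 closed genes of each list, the strongest promoter and distal peaks, and NF-kB matches in footprints; further peaks were named after their values were seen. No test was possible between conditions. Python 3.11.15, pandas 2.3.3, scipy 1.17.1 and bedtools 2.31.1 were used, and the scripts were tested on simulated data.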

Additional observations from a re-analysis of the deposited data

How the results depend on the processing

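The number of the 10 genes with a promoter peak stayed at 9 with the shorter peak list, with the 42295 strongest peaks of each library, with promoters of 500 bp or 2 kb and without either library, and was 8 without peaks near a start of another gene, where Myd88 dropped out. The median of 5 peaks per window became 3.5 with the shorter list, 2 with the strongest peaks, 2 over the gene body alone, 12.25 with 50 kb flanks and 3.75 without peaks near other starts. Summed signal, 9.54 ± 1.37 (SD, n = 2), became 5.57 over the gene body, 21.03 with 50 kb and 6.69 without peaks near other starts, and ranged from 8.57 to 10.5 when either library was left out. Footprints per kb, 10.5 ± 0.507, became 13.2 with the shorter list, 14.2 with the strongest peaks and 11.4 over the gene body (10.1 to 10.8 with either library left out). NF-kB matches per kb, 0.947 ± 0.135, became 1.26, 1.48 and 1.31 under these settings, 0.810 with 50 kb, 4.62 with a looser consensus (GGG and CC with any 5 bases between them) and 0.586 inside footprints with 5 bp on each side (0.851 to 1.04 with either library left out). With the looser consensus, all peaks held 3.75 matches per kb in replicate 1 and 3.20 in replicate 2, against 4.69 and 4.54 for the 10 genes. The excess over all peaks was smaller than with the stricter form. The share of peaks found in the other library, 81.4 ± 7.00%, became 94% with the strongest peaks and 69.9% when 50% mutual overlap was required. The median log2 ratio of -0.03 was 0.12 without centring. The causes were not tested, beyond the smaller or larger windows and lists themselves. No paired analysis was possible because the study has 1 group. With 2 libraries and unknown depth, a missing peak does not show closed chromatin.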
